A study of Homo sapiens with 4 samples.

Results

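The 3 human Polycomb-like genes, PHF19, PHF1 and MTF2, were followed through ATAC-seq peak lists of AMO1 cells, a human myeloma line of plasma cell origin. ATAC-seq finds accessible chromatin by letting a transposase insert adapters into open DNA, and a peak is a stretch where such fragments pile up. Every peak that overlapped the body of 1 of the 3 genes or the 20000 bp on either side was taken, and peaks of different libraries that overlapped were joined into 1 region. This gave 17 of the 73729 regions of the series: 7 around PHF19, 7 around PHF1 and 3 around MTF2, of which 8 touch the gene itself. Given the 3 genes, the choice of regions used position alone and no measured height. The genes themselves were chosen with earlier results of these data known.

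Polycomb-like proteins are accessory subunits of Polycomb repressive complex 2 (PRC2), the enzyme complex that methylates histone H3 at genes that are kept silent. Each of them has a Tudor domain and PHD fingers that meet histone tails, and a winged-helix domain that binds unmethylated CpG-rich DNA and so helps to bring PRC2 to CpG islands. PHF19 is also known as PCL3, PHF1 as PCL1 and MTF2 as PCL2, and PHF19 is known for high expression in aggressive myeloma.

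The 4 libraries, 1 per group, were an IFN-prefixed PHF19 overexpression library, an IFN-prefixed empty vector library, a PHF19 overexpression library and an empty vector library. All were AMO1 cells transfected with the PCDH vector, with PHF19 in it or empty; the labels give the empty vector cells as wild type and the tissue as blood. The prefix IFN stands in the titles and is not explained by the labels, which give the same treatment with and without it. The IFN empty vector library is the deepest, and its header alone names another project folder. With 1 library per group no difference was tested, and the 95% intervals below cover counting error only. The libraries held 16.4, 65.9, 18.2 and 27.4 M fragments (M, 1000000) in that order, with 45825, 69830, 44090 and 49155 peaks. All 8 plasma cell markers looked up, among them SDC1, PRDM1 and XBP1, had a peak within 1000 bp of a gene end or listed start in every library. Of 5 genes each, B cell markers had such a peak for 1, 2, 1 and 2 genes, T cell markers for 1, 3, 1 and 2, and myeloid markers for 1 in each library; PAX5 and MS4A1 had none.

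The RefSeq promoter table used here lists 4 start sites for the 3 genes, and all 4 lay inside a region with a peak in every library. The annotated extent of PHF19 begins farther upstream, at 120904128, where no library had a peak. The promoters of the 4 listed starts, the 250 bases before and 50 after each start in GRCh38.p14, are shown because the members' open regions overlap them. They are given 5′ to 3′ along the gene, and capitals mark the letters GGGCGG (the GC box of SP factors), CCAAT (the box of NF-Y), CCGGAAG (an ETS core), GCGGGAA (an E2F core) and ATGGCG (a YY1 core) on either strand. In one place CCAAT and ATGGCG share letters, and in another neighbouring GC boxes share a base. The tallest summit of the region lay within the bases shown only at MTF2, in every library but the IFN empty vector one.
PHF19 inner start, chr9:120868862-120869161, minus strand: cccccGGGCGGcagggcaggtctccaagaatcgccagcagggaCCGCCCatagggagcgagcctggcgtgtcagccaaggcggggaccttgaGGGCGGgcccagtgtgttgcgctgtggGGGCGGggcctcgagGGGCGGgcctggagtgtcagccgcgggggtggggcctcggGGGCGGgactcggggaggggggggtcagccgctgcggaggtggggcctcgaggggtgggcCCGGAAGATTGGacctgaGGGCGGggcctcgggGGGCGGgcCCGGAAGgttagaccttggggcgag
PHF19 outer start, chr9:120877139-120877438, minus strand: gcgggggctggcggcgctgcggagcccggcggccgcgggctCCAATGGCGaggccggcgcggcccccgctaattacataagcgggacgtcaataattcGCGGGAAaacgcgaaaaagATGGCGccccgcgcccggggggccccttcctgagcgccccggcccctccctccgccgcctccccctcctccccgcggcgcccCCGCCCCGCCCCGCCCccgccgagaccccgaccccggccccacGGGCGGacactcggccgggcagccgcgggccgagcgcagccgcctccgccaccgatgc
PHF1, chr6:33410764-33411063, plus strand: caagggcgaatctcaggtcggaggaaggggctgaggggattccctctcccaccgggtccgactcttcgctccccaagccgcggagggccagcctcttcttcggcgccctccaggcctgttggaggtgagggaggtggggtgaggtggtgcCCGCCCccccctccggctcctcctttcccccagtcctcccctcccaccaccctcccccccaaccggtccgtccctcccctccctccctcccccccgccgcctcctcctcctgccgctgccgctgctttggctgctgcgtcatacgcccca
MTF2, chr1:93079033-93079332, plus strand: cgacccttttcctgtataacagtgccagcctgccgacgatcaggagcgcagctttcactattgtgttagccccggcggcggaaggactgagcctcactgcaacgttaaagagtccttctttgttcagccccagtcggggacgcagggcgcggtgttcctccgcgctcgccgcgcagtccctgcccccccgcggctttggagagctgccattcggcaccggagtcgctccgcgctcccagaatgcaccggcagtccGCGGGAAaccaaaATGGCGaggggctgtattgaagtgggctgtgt

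The promoters differed in base composition. The PHF19 outer start had 79.7% G and C and 48 CpG pairs, more pairs than 98.0% of the 34961 promoters of the RefSeq table. The PHF19 inner start had 76% and 26 pairs, PHF1 71.7% and 19, and MTF2 63% and 28, against medians of 58.7% and 14 over all promoters. The letters GGGCGG stood 8 times at the PHF19 inner start, 4 times at the outer start, once at PHF1 and not at MTF2. Of all promoters 45% held them, and 0.815% held at least 8. Both GCGGGAA (6.57% of promoters) and ATGGCG (10.7%) were found at the PHF19 outer start and at MTF2, a pairing held by 1.12% of promoters. Neither stood at the PHF19 inner start or at PHF1. CCGGAAG (10.3%) was found at the PHF19 inner start alone among the 4, and CCAAT (34.6%) at both PHF19 starts. No member promoter held CACGTG (7.27%), TGANTCA (7.68%) or GAAA, any 2 bases and GAAA again (3.58%), the letters of E-boxes, AP-1 sites and interferon-stimulated response elements. Such matches describe the letters and show no binding.

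**Figure D1:**
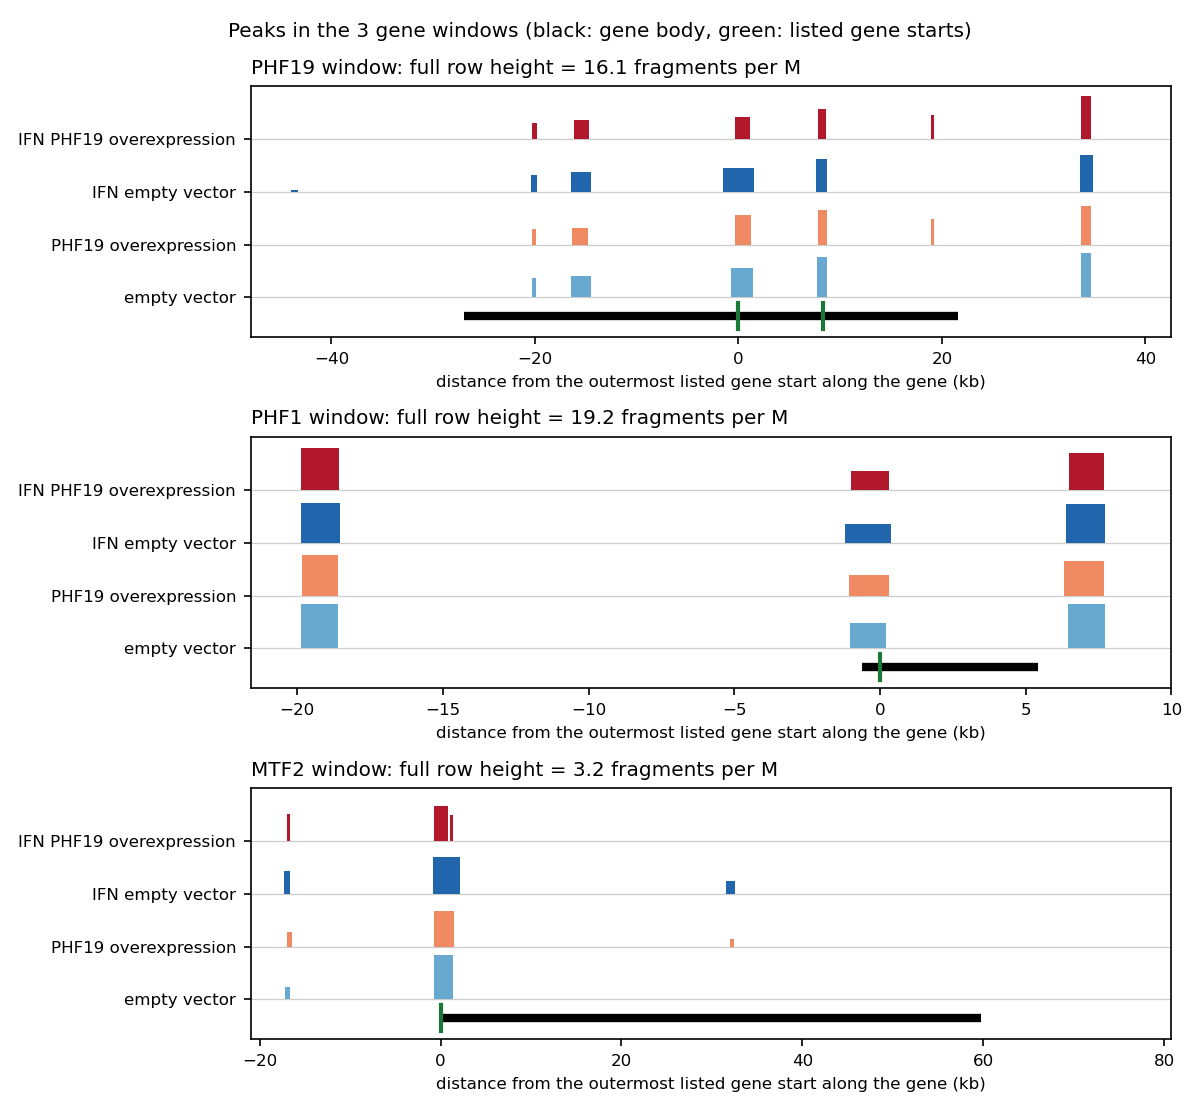
Peaks of each library in the PHF19, PHF1 and MTF2 windows, against distance in kb from the outermost listed start along the gene. Bar width is peak length (drawn at least 0.25 kb wide) and bar height the tallest summit in fragments per M on the scale in each title. The narrow bar at 19.1 kb in the PHF19 window stands only in the PHF19 overexpression libraries. The PHF1 window is drawn only as far as 10 kb, so 13 of the 17 regions are shown.

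PHF19, the gene carried by the vector, is read from the minus strand of chromosome 9 between 120904128 and 120855651. Both PHF19 overexpression libraries held a peak near its 3′ end that neither empty vector library held, the only such region of the 17 and a pattern of 0.583% of all regions. It had 120 fragments at the summit in the IFN PHF19 overexpression library (7.33 per M) and 144 in the PHF19 overexpression library (7.9 per M). The heights did not differ beyond counting error, with a log2 ratio of -0.22 (95% interval -0.59 to 0.14) for IFN PHF19 overexpression over PHF19 overexpression. Here and below a log2 ratio compares heights per M and has the median ratio of the regions that the 2 libraries share subtracted. At these heights the IFN empty vector library would have had 483 to 521 fragments there and the empty vector library 201 to 216, whereas the lowest peaks called in those lists had 16 and 10. The summit lay 2441 bp (IFN PHF19 overexpression) and 2442 bp (PHF19 overexpression) from the 3′ end of the gene, and 10819 and 10818 bp downstream of the inner start. No listed start of any gene lay in it. Exon positions were not used here, so the edges were not set against exons.

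The shape of this peak was unlike that of most peaks of its height. It spanned 120857960 to 120858282 in the IFN PHF19 overexpression library, a length of 323 bp, and 120857950 to 120858284 in the PHF19 overexpression library, 335 bp, against mean fragment lengths of 269 and 273 bp, which the caller takes as the shortest peak allowed. Among peaks within 20% of its height, the median length was 1163 bp over 4381 peaks in the first of these libraries and 1231 bp over 4139 in the second. Only 9 (0.205%) and 7 (0.169%) of them were as short, this peak itself included. Read the other way, 4578 and 4577 peaks, again with this one counted, were no longer than it. Their median heights were 0.855 and 0.823 per M, and 5 and 1 of these were taller.

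Its position was also nearly the same in both libraries. The left edges were 10 bp apart, the right edges 2 bp and the summits 1 bp. Over 9698 pairs of overlapping peaks of these 2 libraries with heights of at least 5 per M, the median differences were 34, 33 and 21 bp. In 5.21% of pairs both edges lay within 10 bp, and in 4.37% the summits lay within 1 bp. Of all regions 430 had a peak in both PHF19 overexpression libraries and in neither empty vector library. The PHF19 peak was the tallest of them by its lower height, 7.33 per M, with the next at 3.46 and the median at 0.658. Whether its fragments came from the chromosomal gene or from the vector that carries PHF19 was not tested.

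**Figure D2:**
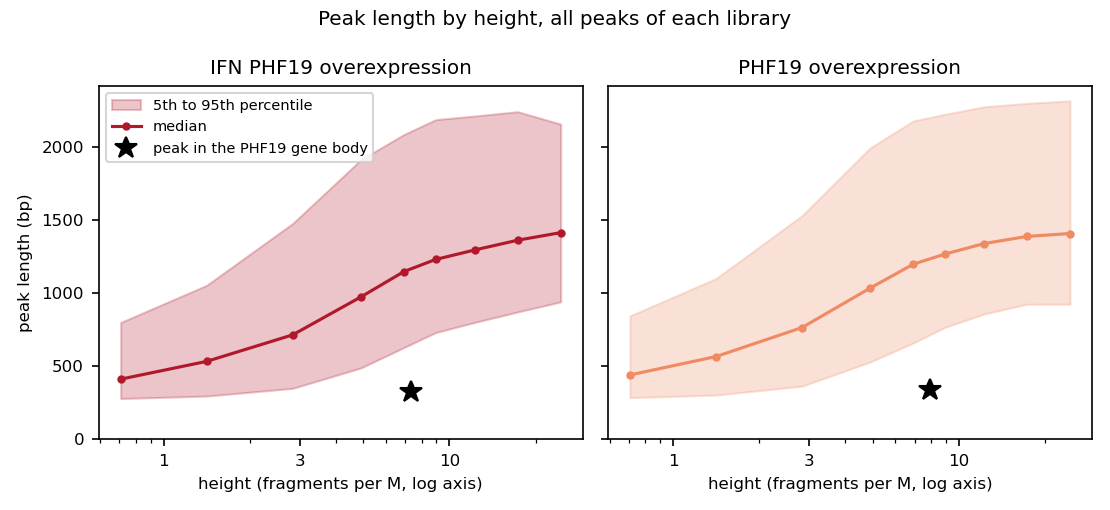
Peak length in bp (vertical) against height in fragments per M (log axis) for all peaks of the IFN PHF19 overexpression and PHF19 overexpression libraries. Lines are medians and bands the 5th to 95th percentiles in height classes; the star is the peak near the 3′ end of PHF19, at 323 and 335 bp, below the band in both.

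The 2 listed PHF19 starts were open in all 4 libraries, and neither had a height that passed 1.5-fold between any compared libraries. The inner start, at 120868911, lay in the taller region. Its tallest summit had 148 fragments in the IFN PHF19 overexpression library (9.04 per M) and 653 in the IFN empty vector library (9.91 per M). In the unprefixed pair it had 191 with PHF19 overexpression (10.5 per M) and 339 with the empty vector (12.4 per M). Both PHF19 overexpression libraries thus stood below their empty vector library. The log2 ratio was -0.30 (95% interval -0.57 to -0.04) for IFN PHF19 overexpression over IFN empty vector, and -0.13 (-0.39 to 0.13) for PHF19 overexpression over empty vector, an interval that includes 0. Without centring the first of these was -0.13 (-0.40 to 0.13), and with the median of regions within 2.5 Mb removed it was -0.20 (-0.47 to 0.06), so its interval was clear of 0 only with the centre of all shared regions. For the IFN prefix it was -0.33 (-0.65 to -0.01) for IFN PHF19 overexpression over PHF19 overexpression and -0.24 (-0.43 to -0.04) for IFN empty vector over empty vector. With PHF19 overexpression this too depended on the centre: it was -0.21 (-0.53 to 0.10) without centring and -0.25 (-0.57 to 0.07) with the local median removed. With the empty vector the interval lay below 0 under all 3 scalings. In bulk cells a larger share of cells with the site open and a more open site in each cell cannot be told apart.

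The outer start, at 120877188, had 109 fragments in the IFN PHF19 overexpression library (6.66 per M), 479 in the IFN empty vector library (7.27 per M), 166 with PHF19 overexpression (9.11 per M) and 243 with the empty vector (8.88 per M). The IFN-prefixed libraries were the lower ones here. The log2 ratio was -0.57 (-0.93 to -0.21) for IFN PHF19 overexpression over PHF19 overexpression, just inside 1.5-fold and at the 3.97th percentile of all shared regions. It was -0.20 (-0.43 to 0.03) for IFN empty vector over empty vector, or -0.29 (-0.51 to -0.06) without centring. For the PHF19 vector the ratio was -0.29 (-0.61 to 0.01) in the IFN-prefixed pair and 0.15 (-0.15 to 0.44) in the unprefixed pair, on opposite sides of the centre with both intervals reaching 0. The difference between the pairs was not tested.

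The summits were placed differently about the 2 starts. At the inner start every library had a pair of summits, 118 to 133 bp downstream and 226 to 283 bp upstream, with the downstream one taller in each library. Within a library this ratio does not depend on depth. Its log2 value, downstream over upstream, was 0.28 (-0.08 to 0.64) in the IFN PHF19 overexpression library and 0.51 (0.33 to 0.68) in the IFN empty vector library. It was 0.67 (0.33 to 1.01) with PHF19 overexpression and 0.62 (0.37 to 0.88) with the empty vector. At the outer start the tallest summit lay 659 to 720 bp inside the gene in every library and not on the start itself. Further summits upstream of it were called only in the 2 empty vector libraries, which are also the 2 deepest. The called length there was 1469 bp in the IFN PHF19 overexpression library, 3002 bp in the IFN empty vector library, 1650 bp with PHF19 overexpression and 2191 bp with the empty vector, which is also the order of the fragments sequenced.

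**Figure D3:**
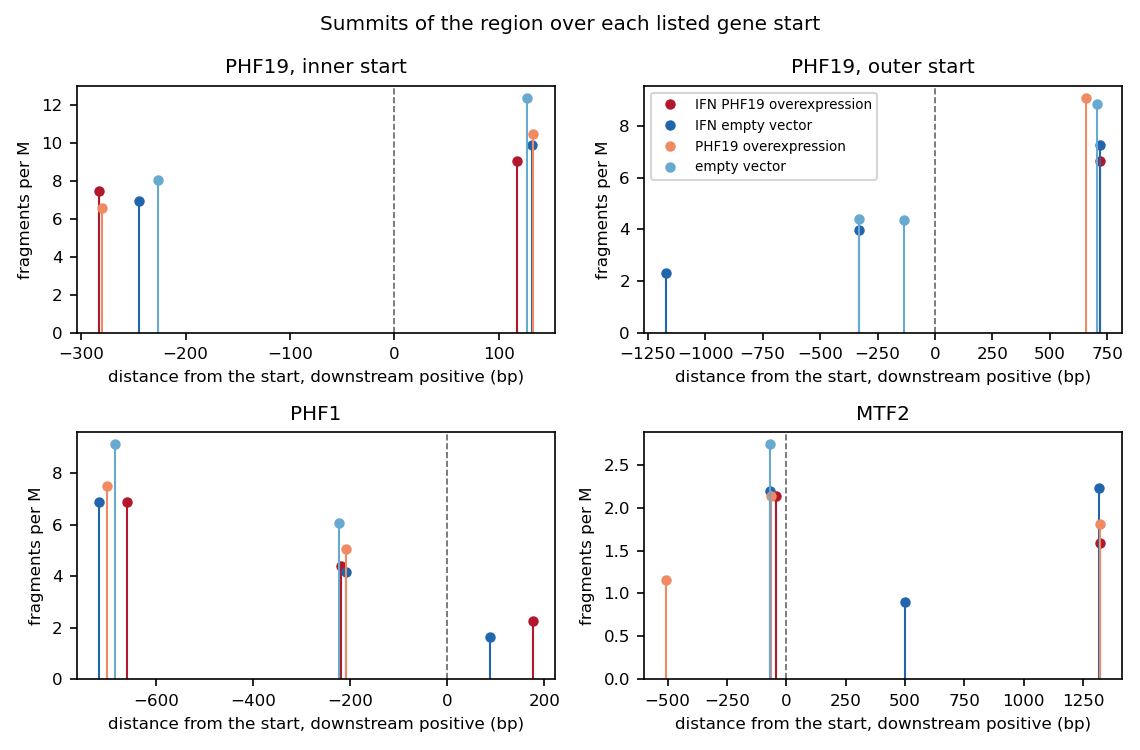
Height of every called summit (fragments per M) against its distance in bp from the listed start, for the regions over the 4 member starts; colours are the 4 libraries and the dashed line is the start. The tallest summits lie 118 to 133 bp inside the gene at the PHF19 inner start, 659 to 720 bp inside it at the outer start, and 660 to 718 bp before the PHF1 start.

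A pair of further PHF19 regions lay upstream of both listed starts but within the annotated extent of the gene, with middles 15.5 and 20.1 kb before the outer start. The nearer one had 93 fragments in the IFN PHF19 overexpression library (5.68 per M), 391 in the IFN empty vector library (5.93 per M), 90 with PHF19 overexpression (4.94 per M) and 176 with the empty vector (6.43 per M). The farther one had 78 (4.76 per M), 342 (5.19 per M), 84 (4.61 per M) and 164 (5.99 per M) in the same order. Both stood lower with PHF19 overexpression in each pair. The ratios were -0.23 and -0.29 in the IFN-prefixed pair and -0.27 for both in the unprefixed pair, and all 4 intervals include 0. Without centring the unprefixed pair gave -0.38 (-0.76 to -0.01) for the nearer region, just clear of 0, and -0.38 (-0.78 to 0.01) for the farther one. In the IFN-prefixed pair the uncentred values were nearer to 0, at -0.06 (-0.41 to 0.27) and -0.12 (-0.50 to 0.23). The region over the start of the neighbour PSMD5, which encodes an assembly chaperone of the proteasome, had 13.1 per M in the IFN PHF19 overexpression library, 11.3 in the IFN empty vector library, 11.9 with PHF19 overexpression and 13.7 with the empty vector, with ratios of 0.04 and -0.09 for the PHF19 vector. A region in TRAF1, an adaptor of TNF receptors, was called with the IFN empty vector alone, with 35 fragments or 0.531 per M; 21.6% of all regions were held by that library alone.

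PHF1 lies on the plus strand of chromosome 6 from 33410412 to 33416439, between KIFC1, a kinesin of the mitotic spindle, and CUTA. The region over its start had 113 fragments in the IFN PHF19 overexpression library (6.9 per M), 455 in the IFN empty vector library (6.9 per M), 137 with PHF19 overexpression (7.52 per M) and 250 with the empty vector (9.14 per M). The empty vector library was the highest. The log2 ratio was -0.32 (-0.54 to -0.09) for IFN empty vector over empty vector, and -0.24 (-0.61 to 0.13) for IFN PHF19 overexpression over PHF19 overexpression. For the PHF19 vector it was -0.17 (-0.48 to 0.13) in the IFN-prefixed pair and -0.17 (-0.48 to 0.14) in the unprefixed pair. The taller of its summits lay 660 to 718 bp before the listed start in the 4 libraries, and a lower one 209 to 223 bp before it. Their log2 ratio, nearer over farther, was -0.65 in the IFN PHF19 overexpression library, -0.73 in the IFN empty vector library, -0.57 with PHF19 overexpression and -0.59 with the empty vector, with overlapping intervals. The IFN-prefixed libraries also had a low summit 89 to 177 bp downstream of the listed start. That start, at 33411014, lies inside the annotated extent of PHF1, which begins at 33410412. The taller summits, at 33410296 to 33410354, lie just outside that extent.

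Of the 17 regions 2 had a peak in both empty vector libraries and in neither PHF19 overexpression library. This is 11.8% of them, against 8.64% of all regions, so the share is near the background. The region over the start of CUTA had 13.2 per M in the IFN PHF19 overexpression library, 13.9 in the IFN empty vector library, 12.6 with PHF19 overexpression and 16.3 with the empty vector. It was lower with the PHF19 vector in both pairs, with a ratio of -0.24 (-0.46 to -0.03) in the IFN-prefixed and -0.26 (-0.50 to -0.03) in the unprefixed pair. With the median of regions within 2.5 Mb removed these were -0.17 (-0.39 to 0.05) and -0.18 (-0.41 to 0.06), which both include 0. Without centring they were -0.08 (-0.30 to 0.14) and -0.38 (-0.61 to -0.14). The KIFC1 start had -0.11 (-0.32 to 0.09) and -0.02 (-0.24 to 0.20).

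MTF2 lies on the plus strand of chromosome 1 from 93079283 to 93139076, and its start was the least open of the members. The region had 35 fragments in the IFN PHF19 overexpression library (2.14 per M), 147 in the IFN empty vector library (2.23 per M), 39 with PHF19 overexpression (2.14 per M) and 75 with the empty vector (2.74 per M). The values lay close together. The ratio for the PHF19 vector was -0.23 (-0.80 to 0.31) in the IFN-prefixed pair and -0.25 (-0.84 to 0.33) in the unprefixed pair. For the IFN prefix it was -0.21 (-0.62 to 0.21) with the empty vector and -0.12 (-0.82 to 0.58) with PHF19 overexpression. The region was broad and had a summit 43 to 70 bp before the start in each library. A second summit lay 1316 to 1322 bp inside the gene in every library but the empty vector one, where a single summit was called. In the IFN PHF19 overexpression library the 2 summits were separate peaks.

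Among regions with a peak in both compared libraries, the only one past 1.5-fold lay 16.9 kb before MTF2, at 93061980 to 93062824, where the gene table has no gene. It had 27 fragments in the IFN PHF19 overexpression library (1.65 per M) and 91 in the IFN empty vector library (1.38 per M), against 16 with PHF19 overexpression (0.878 per M) and 20 with the empty vector (0.731 per M). Both IFN-prefixed libraries thus stood above both others. The log2 ratio was 1.0 (0.29 to 1.78) for IFN empty vector over empty vector, at the 99.3rd percentile of shared regions, and 0.79 (-0.15 to 1.78) for IFN PHF19 overexpression over PHF19 overexpression, at the 97.2nd, an interval that includes 0. These 2 comparisons share no library, and 0.792% of the regions with peaks in all libraries were higher by over 1.5-fold in both. Over 1.5-fold higher were 6.21% and 6.65% of all shared regions in these comparisons, so 1 such region in the windows is near the background. The percentiles and shares here are over regions of all heights, and this region is a low one. The low counts make both values imprecise. For the PHF19 vector the ratio there was 0.09 (-0.59 to 0.72) in the IFN-prefixed pair and 0.38 (-0.67 to 1.40) in the unprefixed pair. One more region, 32 kb inside MTF2, had 51 fragments in the IFN empty vector library (0.774 per M) and 8 with PHF19 overexpression (0.439 per M), the fewest of any peak in that list, and no peak in the other libraries.

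**Figure D4:**
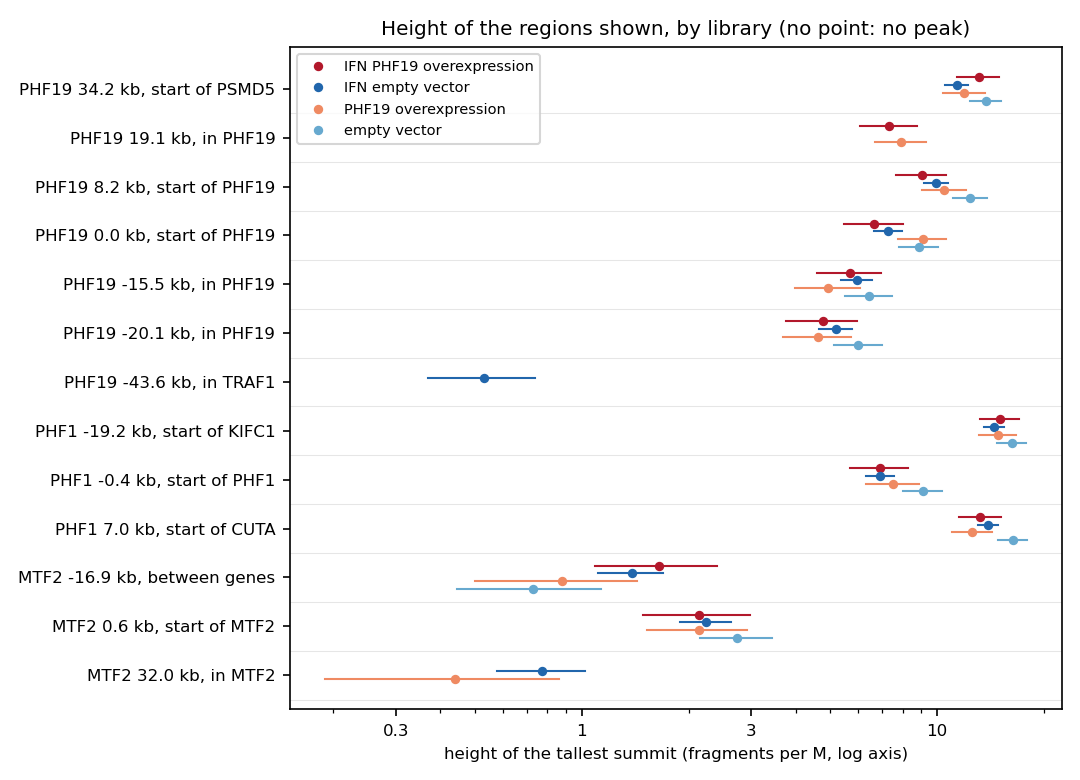
Height of the tallest summit (fragments per M, log axis) of 13 of the 17 regions in each library, with the exact 95% counting interval; distances are from the outermost listed start, and a missing point means no peak. In the MTF2 window at -16.9 kb the IFN-prefixed libraries stand at 1.65 and 1.38, above 0.878 and 0.731 in the others.

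Set side by side, the PHF19 inner start was the tallest of the 4 starts and MTF2 the lowest in every library. Mean heights over the 4 libraries were 10.5 per M at the PHF19 inner start, 7.98 at the outer start, 7.61 at PHF1 and 2.31 at MTF2. Among the tallest gene-end regions of 12382 protein-coding genes with a mean of at least 1 per M, these lay at the 74.3rd, 54.8th, 51.4th and 8.59th percentiles. The outer PHF19 start and PHF1 changed places between libraries: PHF1 was the higher one in the IFN PHF19 overexpression and empty vector libraries, and the outer start in the other 2.

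Across the windows most regions were slightly lower with the PHF19 vector, none by over 1.5-fold. For IFN PHF19 overexpression over IFN empty vector, 12 regions could be compared, with a median log2 ratio of -0.20, or -0.03 without centring. None was over 1.5-fold higher, against 11.8% of all shared regions, and none over 1.5-fold lower, against 10.9%. Among shared regions with a mean height of at least 2 per M these shares were 4.16% and 10.1%. For PHF19 overexpression over empty vector the median over 12 regions was -0.15, or -0.26 without centring, with none over 1.5-fold higher (12.8% of all, 5.03% of those of at least 2 per M) or lower (9.16% and 8.77%). Past 1.5-fold in the same direction in both pairs were 4.15% (higher) and 5.36% (lower) of the regions called in all libraries, and no member. Of these 12 regions 8 lay below the centre in both pairs, 2 above it in both and 2 on opposite sides, against 37%, 32.7% and 30.2% of the 35731 regions called in all libraries. Most of the 12 are tall, and among all regions with a mean height of at least 5 per M the medians were -0.03 in the IFN-prefixed and -0.11 in the unprefixed pair. Of those tall regions 55.7% lay below the centre in the IFN-prefixed and 67.9% in the unprefixed pair, beside 9 of the 12 in each pair. The centre itself stood at 0.17 in the IFN-prefixed pair and at -0.11 in the unprefixed pair on the log2 scale.

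For the IFN prefix, the median over 14 regions was -0.15 for IFN empty vector over empty vector, with 12 of them below the centre. Only the MTF2 upstream region, 1 of the 14, was over 1.5-fold higher, against 6.21% of all shared regions, so the share is near the background. None was over 1.5-fold lower, against 1.81%. Among regions of at least 2 per M, a height that the MTF2 upstream region does not reach, the shares were 0.775% and 0.548%. Of all regions of at least 5 per M 85.2% also lay below the centre in this comparison, with a median of -0.18. For IFN PHF19 overexpression over PHF19 overexpression the median over 13 regions was -0.09 with centring and 0.03 without it. The MTF2 upstream region was again the only one over 1.5-fold higher, 1 of the 13 (6.65% of all, 2.03% of those of at least 2 per M). None was over 1.5-fold lower (3.63% and 1.13%). Of the 12 regions with all 4 values, 8 lay below the centre in both comparisons, 1 above it in both and 3 on opposite sides, against 30.4%, 26.2% and 43.3% of the regions called in all libraries. Over 1.5-fold lower in both were 0.0532% of those regions and no member. The centres of these comparisons were -0.09 and 0.11.

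**Figure D5:**
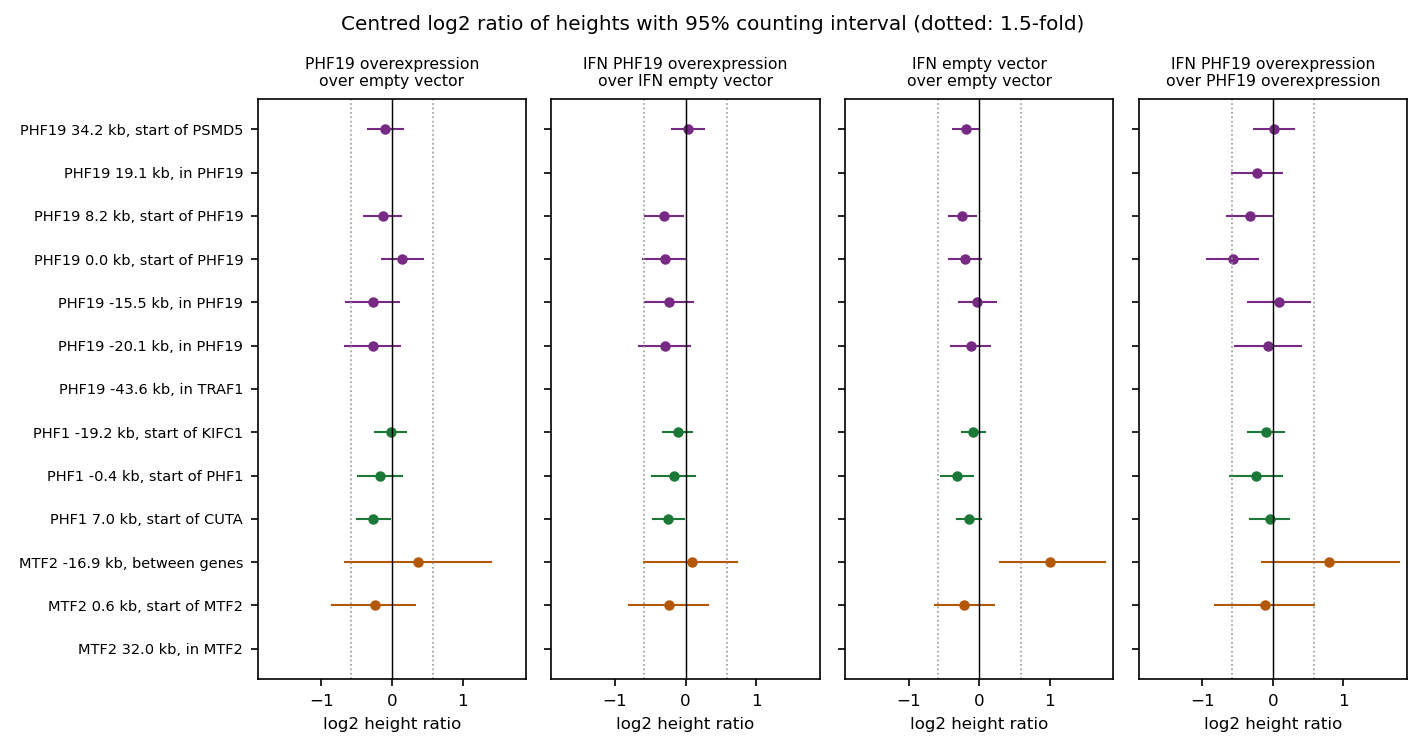
Centred log2 ratio of heights for 13 of the 17 regions in the 4 comparisons, with exact 95% counting intervals; dotted lines mark 1.5-fold, and colours the 3 windows. All values drawn lie inside 1.5-fold except the MTF2 region at -16.9 kb in the 2 comparisons of the IFN prefix, at 1.0 and 0.79.

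Some regions had a peak in 1 library of a compared pair only, and the share of that library's regions in the whole series is given in parentheses. Of the 17 regions 12 had a peak in all 4 libraries, against 48.5% of all regions. The IFN PHF19 overexpression library had 1 region that the IFN empty vector library lacked (4.53%), and the IFN empty vector library, with the most fragments, had 4 without one in the IFN PHF19 overexpression library (38.2%). PHF19 overexpression had 2 regions without a peak in the empty vector library (11.9%), and the empty vector library had 2 without one with PHF19 overexpression (21.2%). For the IFN prefix, the IFN empty vector library had 2 regions that the empty vector library lacked (31.6%) and lacked none of its regions (2.05%). The IFN PHF19 overexpression library had none that PHF19 overexpression lacked (15.5%) and lacked 1 of its regions (12.4%).

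Genes with the most similar profile over the 4 libraries were found by the distance between log2 heights, each centred on its library and on its own mean. For the PHF19 inner start the nearest of 10532 gene-end regions were those of MORC2, PIK3C3 and SFT2D3, at distances of 0.00647 to 0.0156. For PHF1 they were DPY19L3, DIDO1 and UQCC2, at 0.00422 to 0.013, and for MTF2 PTGER4, C16orf89 and HLA-E, at 0.00814 to 0.0193. Such likeness is common with 4 libraries: 191, 356 and 525 gene-end regions lay within 0.1 of PHF19, PHF1 and MTF2. These distances are Euclidean, in log2 units. The member starts lay 0.0976 (PHF19 inner start and PHF1), 0.133 (PHF1 and MTF2) and 0.152 (PHF19 inner start and MTF2) from each other. The PHF19 outer start was the farthest from the others, at 0.222 from the inner start, 0.264 from PHF1 and 0.359 from MTF2.

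The other PRC2 genes gave a background of regions at the ends of related genes. For each gene the tallest region within 1000 bp of either gene end or a listed start was taken, so it need not be the promoter. At EED 2 regions qualified, and the one used lay at 86286685 to 86287660 on chromosome 11. Whether it covers the EED promoter was not checked. Of 12 core and accessory genes 11 had a gene-end region with a peak in all libraries, and EZHIP had none. Their median log2 ratio was -0.11 for IFN PHF19 overexpression over IFN empty vector, or 0.06 without centring, with 8 of 11 below the centre, and -0.16 for PHF19 overexpression over empty vector, with 7 of 11 below it. AEBP2, a DNA-binding accessory subunit of the PRC2 form that lacks Polycomb-like proteins, was the only one of the 11 over 1.5-fold higher, in both pairs. Of all shared regions 11.8% were so in the IFN-prefixed and 12.8% in the unprefixed pair (4.16% and 5.03% of those of at least 2 per M). In both pairs 4.15% of the regions called in all libraries were so. AEBP2 had 84 fragments in the IFN PHF19 overexpression library (5.13 per M) against 174 in the IFN empty vector library (2.64 per M), and 97 with PHF19 overexpression (5.32 per M) against 95 with the empty vector (3.47 per M). Its ratios were 0.79 (0.40 to 1.17) and 0.73 (0.30 to 1.15), or 0.49 (0.10 to 0.87) and 0.16 (-0.27 to 0.58) with the median of regions within 2.5 Mb removed, both inside 1.5-fold. EED, a core subunit that reads the methyl mark, was at -0.48 (-0.89 to -0.10) in the IFN-prefixed pair and at -0.97 (-1.45 to -0.51) in the unprefixed pair, the only one over 1.5-fold lower there (9.16% of all shared regions). With the local median removed these were -0.37 (-0.77 to 0.02) and -0.74 (-1.22 to -0.27), and without centring -0.32 (-0.72 to 0.07) and -1.08 (-1.56 to -0.62), so the first interval then includes 0. EZH2, the catalytic subunit, had -0.03 (-0.27 to 0.22) and -0.16 (-0.41 to 0.09). Without centring these were 0.14 (-0.11 to 0.38) and -0.27 (-0.52 to -0.02), on opposite sides of 0, and only the second interval was clear of it. For the IFN prefix the PRC2 medians were -0.22 with the empty vector and -0.07 with PHF19 overexpression, or 0.04 without centring in the last case, and none passed 1.5-fold.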

How the data were processed

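The deposited lists come from MACS2 2.1.2, run by the authors on each library alone with paired fragments and no control sample, per the file headers. The q threshold was 0.01, duplicates were kept, and a peak could hold several summits. The submitters' processing notes give the build as hg38 and list bcl2fastq 2.17, Trimmomatic 0.38 and DiffBind; the aligner is not given in the sources used here. As signal, heights use the pileup as deposited, a whole number of fragments over a summit with no scaling, per the file headers. Per-peak values of -log10 p-value, -log10 q-value and fold enrichment over local background, also deposited by the authors, served only to rank or filter within a list. Kept duplicates mean that fragments are not all independent molecules.

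Summits were collapsed to the tallest per peak, peaks on chromosomes 1 to 22 and X that shared at least 1 bp were merged across libraries, and heights were divided by the fragments in each header. Ratios have exact Clopper-Pearson 95% intervals (scipy 1.17.1), moved with the ratio under other centrings, and the calculation was run on simulated counts. Those counts had counting error only, without duplicates or variation between libraries. The run checked the calculation and cannot show that the intervals hold for these data. Gene extents, starts and promoters came from RefSeq tables on GRCh38.p14, the assembly that hg38 names, which matched all 3 members. The members and gene lists were chosen with earlier results of these data known. Named are the members, genes at their regions, 12 PRC2 genes and, for each member's tallest start region, the 3 genes of most similar profile. Of the 17 regions, 4 are counted but not reported singly here. Alternatives were other centrings, a stricter q, mean summits, equal lists, a smaller window and a stricter overlap.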

Additional observations from a re-analysis of the deposited data

How the results depend on the processing

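The narrow PHF19 peak kept its place and heights with summits at a -log10 q of at least 5 and with lists of equal length. With the window reduced to the gene body plus 1 kb, the regions with a peak numbered 8 in the IFN PHF19 overexpression library, 8 in the IFN empty vector library, 9 with PHF19 overexpression and 7 with the empty vector, in place of 13, 16, 14 and 14, and the count over 1.5-fold higher became 0 for both comparisons of the IFN prefix because the region before MTF2 lies outside. With the mean of all summits as the height, the count over 1.5-fold higher became 1 for PHF19 overexpression over empty vector, and the count over 1.5-fold lower became 2 for IFN empty vector over empty vector and 1 for IFN PHF19 overexpression over PHF19 overexpression; this setting averages over summits whose number differed between libraries. Without centring the median for IFN empty vector over empty vector was -0.24. The other medians and counts past 1.5-fold stayed within their interval or within 1.5 times under the alternatives run. The libraries carry no replicate numbers that would pair them, so the 2 pairs by prefix are given side by side; a fit additive in vector and prefix was not run. No library could be left out of a group of 1. Where a printed interval was clear of 0 with the centre of all shared regions but included 0 under another centring, this is said beside its value. Depth limits the weaker regions most: 16 to 27 fragments stood behind 3 of the 4 values of the region before MTF2.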
